A study of Mus musculus with 33 samples.

Results

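The genes described here are 10 genes of the core pluripotency network of mouse embryonic stem cells (ESCs), namely Pou5f1, Sox2, Nanog, Nr5a2, Dppa5a, Sall4, Lin28a, Utf1, Dppa2 and Dppa4. They were chosen by name, each matched 1 of the 55487 genes listed, and all 10 passed the filter on low counts in every comparison. Their mRNA levels were measured by RNA-seq in 33 libraries from mouse ESCs of strain C57BL/6, which make up 11 conditions of 3 libraries. The study asked how the loss of heterochromatin protein 1 (HP1) paralogs, singly and combined, affects the pluripotent state. The mutants were the Hp1αΔ/Δ, Hp1βΔ/Δ and Hp1γΔ/Δ single mutants, the Hp1α/βΔ/Δ, Hp1α/γΔ/Δ and Hp1β/γΔ/Δ double mutants, Hp1α/β/γΔ/Δ cells and Setdb1Δ/Δ cells. The single and double mutants were constitutive CRISPR/Cas9 knockouts. Hp1α/β/γΔ/Δ cells came from Hp1α/βΔ/Δ ESCs with a loxP-flanked Hp1γ after transfection with Cre, and Setdb1Δ/Δ cells came from Setdb1F/F ESCs, which carry loxP sites around a block of Setdb1 exons. A pair of wild-type sets served as controls and is called set A and set B here. Set A stands beside the single mutants, Hp1α/βΔ/Δ ESCs and Hp1α/β/γΔ/Δ cells, set B beside Hp1α/γΔ/Δ and Hp1β/γΔ/Δ ESCs, and Setdb1F/F ESCs beside Setdb1Δ/Δ cells. For Hp1α/β/γΔ/Δ cells the study describes the loxP-carrying parent cells with a control vector as the comparison, while the labels call set A wild type. The 3 libraries of a condition are called biological replicates by the study, and how many clones stand behind them is not given in the sources used here. All lines were grown on feeder fibroblasts with serum and LIF and were separated from the feeders by plating on gelatin.

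As background, ESCs keep the capacity to form all embryonic lineages through a circuit of transcription factors that activate each other's genes and those of further pluripotency factors. Pou5f1 encodes OCT4, a POU-domain factor that binds DNA together with the HMG-box factor SOX2, and the homeodomain factor NANOG stabilizes self-renewal. The HP1 proteins, encoded by Cbx5 (HP1α), Cbx1 (HP1β) and Cbx3 (HP1γ), bind methylated lysine 9 of histone H3 in silent chromatin, and SETDB1 is one of the enzymes that write this mark.

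The libraries held 17331005 to 25743236 counts (median 21522625). The targeted genes were lower in every mutant that lacks them, though not at 0. The log2 fold change of Cbx5 was −1.45 in Hp1αΔ/Δ ESCs and −0.81 in Hp1α/β/γΔ/Δ cells, that of Cbx1 was −2.10 in Hp1βΔ/Δ ESCs, that of Cbx3 was −1.23 in Hp1γΔ/Δ ESCs, and that of Setdb1 was −0.93 in Setdb1Δ/Δ cells. Library 2 of Hp1α/γΔ/Δ ESCs stood apart from libraries 1 and 3. Its log2 CPM correlated with theirs at 0.974 to 0.976 (Pearson's r across genes), against 0.985 to 0.991 for all other pairs within a condition. Genes shorter than 1500 bases had a median log2 ratio of 0.61 to the mean of libraries 1 and 3 in it, and genes of at least 3000 bases had −0.24. The members' fold changes and most counts in Hp1α/γΔ/Δ ESCs are therefore given with and without this library. Level ranges, correlations over the conditions, distances from chromosome medians and values against the other wild-type set include it. Scaling by library totals in place of TMM moved the median log2 fold change of all genes from −0.018 to −0.194 in Hp1α/γΔ/Δ ESCs and from 0.035 to 0.283 in Hp1α/β/γΔ/Δ cells.

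The members differed widely in abundance. On the length-corrected scale of deposited TPM, Dppa5a, a KH-domain RNA-binding protein gene, led in wild-type set A with 2099.5 ± 80 TPM (SD, n = 3), followed by Pou5f1 with 1157 ± 2.72 TPM. Utf1, Dppa4, Sox2, Lin28a and Nanog lay between 339 ± 7.36 and 143 ± 4.05 TPM, Dppa2 and Sall4 had 87.5 ± 2.11 and 71.6 ± 1.84 TPM, and Nr5a2 was lowest with 13.1 ± 0.183 TPM. Nr5a2 was also the lowest of the 10 in each of the other 10 conditions. All further levels are counts per 1 M counts of a library after TMM scaling (CPM), which compare a gene between conditions and not genes with each other. All 10 genes were detected in every library, down to 9.53 CPM of Nr5a2 in a library of Hp1α/β/γΔ/Δ cells. Over the 11 conditions the mean level of Dppa5a ranged over 10.9-fold, that of Nr5a2 over 10.6-fold and that of Nanog over 7.89-fold, whereas Sall4, Dppa4 and Lin28a ranged over 2.25-fold, 2.42-fold and 2.47-fold. Without Hp1α/β/γΔ/Δ and Setdb1Δ/Δ cells, Nr5a2 and Dppa5a still ranged over 9.01-fold and 6.41-fold, and the other 8 genes over 1.72-fold to 2.9-fold. These ranges include library 2 of Hp1α/γΔ/Δ ESCs, the condition with the highest mean of Dppa5a, with 1151, 2452 and 1239 CPM. The place of Dppa5a before Nr5a2 may rest on that library, and ranges without it were not computed. In bulk RNA, fewer cells that express a gene and less of its RNA per cell cannot be told apart.

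**Figure D1:**
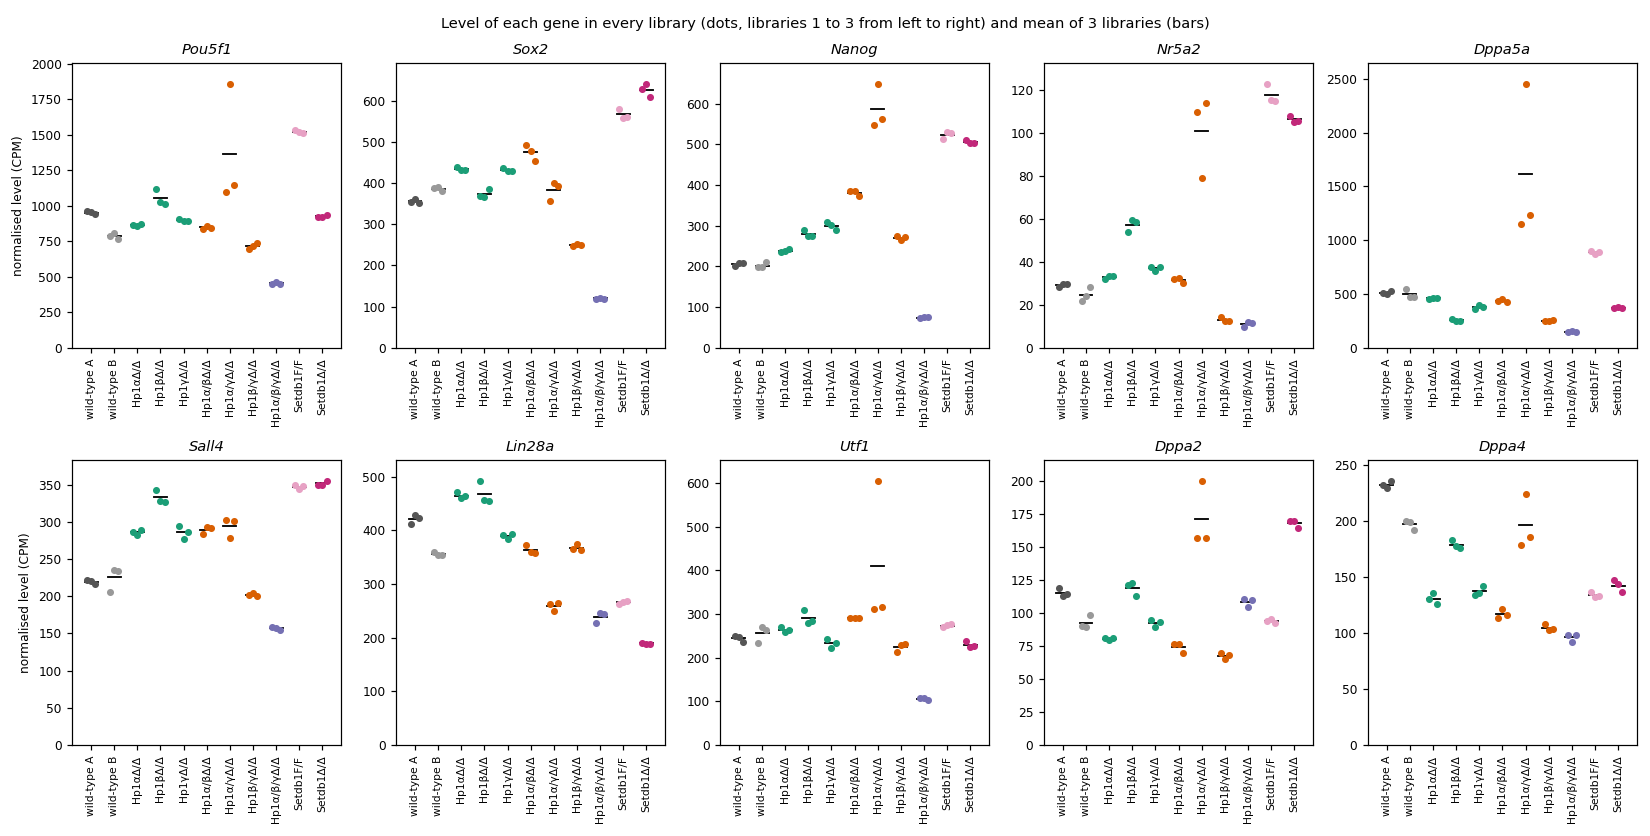
Level of each of the 10 genes in CPM (linear axis from 0) in the 3 libraries of each of 11 conditions (dots) with their mean (bars). Nanog lies above wild-type set A in each single and double mutant and lowest, at 72.03 to 75.5 CPM, in Hp1α/β/γΔ/Δ cells, and library 2 of Hp1α/γΔ/Δ ESCs lies far above libraries 1 and 3 for Pou5f1, Dppa5a and Utf1.

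Each mutant was tested against its control with edgeR's quasi-likelihood test across all genes, and a member is called changed at a Benjamini-Hochberg adjusted p under 0.05. SE denotes the standard error of a log2 fold change from that fit. In Hp1αΔ/Δ ESCs 10 of 10 members changed (6 higher, 4 lower) and 45.0% of all genes did. In Hp1βΔ/Δ ESCs 8 members changed (6 higher, 2 lower) beside 51.1% of all genes, and in Hp1γΔ/Δ ESCs 9 (4 higher, 5 lower) beside 46.7%. Among the double mutants 9 members changed in Hp1α/βΔ/Δ ESCs (4 higher, 5 lower; 43.4% of all genes), 7 in Hp1α/γΔ/Δ ESCs (6 higher, 1 lower; 46.5%; without library 2 it was 8, with 7 higher and 1 lower, beside 67.1%), and 9 in Hp1β/γΔ/Δ ESCs (1 higher, 8 lower; 51.7%). All 10 were lower in Hp1α/β/γΔ/Δ cells with TMM scaling, Dppa2 turning to higher by library totals, and 81.6% of all genes changed there, 41.7% higher and 39.9% lower. In Setdb1Δ/Δ cells 9 changed (3 higher, 6 lower) beside 78.9%, while by library totals 6 were higher and 3 lower, as Nanog and Nr5a2 passed as higher, Sall4 gained a call as higher and Utf1 lost its call. The shares of all genes that were higher and lower were 22.8% and 22.2% in Hp1αΔ/Δ, 24.7% and 26.4% in Hp1βΔ/Δ, 23.4% and 23.3% in Hp1γΔ/Δ, 21.3% and 22.1% in Hp1α/βΔ/Δ, 20.2% and 26.3% in Hp1α/γΔ/Δ, 26.0% and 25.7% in Hp1β/γΔ/Δ, and 40.2% and 38.8% in Setdb1Δ/Δ. The libraries of mutant and control did not overlap for 10 members in Hp1αΔ/Δ (52.8% of all genes), 9 in Hp1βΔ/Δ (59.4%), 9 in Hp1γΔ/Δ (54.5%), 10 in Hp1α/βΔ/Δ (52.9%), 8 in Hp1α/γΔ/Δ (63.1%; 9 without library 2, beside 77.9%), 10 in Hp1β/γΔ/Δ (58.6%), 10 in Hp1α/β/γΔ/Δ (83.0%) and 9 in Setdb1Δ/Δ (80.2%), and for 6 between the wild-type sets (39.5%).

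Few changes in single and double mutants were over 2-fold. Of 60 values, 10 genes in 6 mutants, 27 were higher, 25 lower and 8 did not pass, and 5 of the changed values were over 2-fold. These 5 were Dppa5a in Hp1βΔ/Δ ESCs (9.1% of all genes changed over 2-fold), Dppa4 in Hp1α/βΔ/Δ ESCs (8.15%), and Nanog, Nr5a2 and Dppa5a in Hp1α/γΔ/Δ ESCs (23.1%). Without library 2 the same members of the last passed, beside 3802 of 16277 genes. No member passed 2-fold in Hp1αΔ/Δ (4.87%), Hp1γΔ/Δ (5.59%) or Hp1β/γΔ/Δ ESCs (11.9%), 7 did in Hp1α/β/γΔ/Δ cells (42.3%), and Dppa5a alone did in Setdb1Δ/Δ cells (29.9%). By library totals 5 did in Hp1α/β/γΔ/Δ cells, without Pou5f1 and Utf1, and 6 did with set B as the control. In deposited TPM 4 lay beyond 2-fold there, Sox2, Nanog, Nr5a2 and Dppa5a. In Setdb1Δ/Δ cells Dppa2 was the one member beyond 2-fold by library totals and in TPM, in place of Dppa5a. Dppa5a in Hp1βΔ/Δ and Dppa4 in Hp1α/βΔ/Δ ESCs lay close to this limit, with fitted folds of 0.497 and 0.499. The median log2 fold change of the 10 members was 0.14 in Hp1αΔ/Δ, 0.13 in Hp1βΔ/Δ, −0.08 in Hp1γΔ/Δ, −0.04 in Hp1α/βΔ/Δ, 0.68 in Hp1α/γΔ/Δ (0.46 without library 2) and −0.32 in Hp1β/γΔ/Δ ESCs, where that of all genes lay between −0.03 and 0.00.

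The wild-type sets gauge how far cells of 1 genotype differ. Between set B and set A 5 of 10 members differed (1 higher, 4 lower in set B), and 24.8% of all genes did. Pou5f1 was lower in set B by a log2 fold change of −0.27, Lin28a by −0.24, Dppa2 by −0.31 and Dppa4 by −0.23, and Sox2 was higher by 0.12. None of the 10 differed over 2-fold, as 5.68% of all genes did. The largest of these differences, 0.31 in size, was not exceeded by 21 of the 52 changed values in single and double mutants, and 31 were larger. What share of the changed values of all genes is larger than this was not counted, so the split is a description only. With the other wild-type set as the control, 43 of the 60 values passed in the direction they had against their own control, 25 higher and 18 lower. Among all genes, from 7282 of 15920 in Hp1α/βΔ/Δ to 10216 of 16470 in Hp1β/γΔ/Δ ESCs changed against the other set. How many of all genes passed in the same direction against both sets was not counted, and both comparisons use the same mutant libraries. By gene, the values of Nanog and Sall4 passed so in all 6 mutants, those of Dppa4 in 5 of 6, and those of Pou5f1 in 2 of 6.

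**Figure D2:**
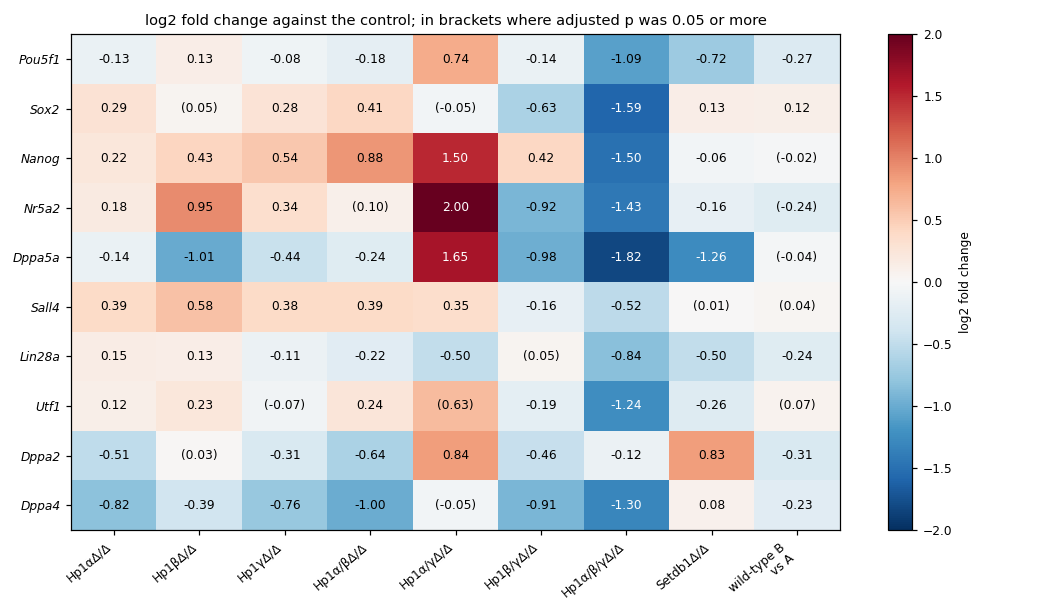
Log2 fold change (colour and number) of the 10 genes (rows) in 8 mutants against their controls and in wild-type set B against set A (columns), with values in brackets where the adjusted p was 0.05 or more. Hp1α/β/γΔ/Δ cells are lower for all 10 genes, from −0.12 of Dppa2, which turns to 0.13 by library totals, to −1.82 of Dppa5a, and Nanog is higher in the 6 single and double mutants.

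Nanog was the one gene that rose in all 6 single and double mutants, of which 4 share wild-type set A and 2 share set B. The libraries had 201, 207 and 208 CPM of it in wild-type set A and 198, 198 and 210.2 CPM in set B. It was 235, 237 and 242 CPM in Hp1αΔ/Δ, 289, 275 and 275 CPM in Hp1βΔ/Δ and 308, 302 and 288 CPM in Hp1γΔ/Δ ESCs. No library of a single mutant fell within the range of either wild-type set. Among the double mutants the libraries had 385, 385 and 374 CPM in Hp1α/βΔ/Δ, 548, 648 and 562 CPM in Hp1α/γΔ/Δ and 275, 264 and 273 CPM in Hp1β/γΔ/Δ ESCs, all above both wild-type sets. The log2 fold change was 0.22 (SE 0.0298, adjusted p = 4.91e-06) in Hp1αΔ/Δ, 0.43 (SE 0.0377, adjusted p = 4.75e-06) in Hp1βΔ/Δ and 0.54 (SE 0.0307, adjusted p = 5.81e-11) in Hp1γΔ/Δ ESCs. It was 0.88 (SE 0.0331, adjusted p = 8.91e-13) in Hp1α/βΔ/Δ, 1.50 (SE 0.103, adjusted p = 9.6e-05) in Hp1α/γΔ/Δ and 0.42 (SE 0.0447, adjusted p = 1.39e-06) in Hp1β/γΔ/Δ ESCs. Without library 2 the value for Hp1α/γΔ/Δ ESCs was 1.46 (adjusted p = 3.82e-11). In Hp1α/β/γΔ/Δ cells Nanog had 72, 75.3 and 75.5 CPM, which is −1.50 on the log2 scale, the opposite direction to that in each mutant with 1 or 2 paralogs removed. The study took RNA of these cells 72 h after Cre and reports massive cell death in them, whereas the other Hp1 mutants were constitutive knockouts. The number of paralogs lost and the time since deletion cannot be told apart here. The order of the 11 conditions ran from Hp1α/β/γΔ/Δ cells over both wild-type sets, whose libraries overlapped, Hp1αΔ/Δ and Hp1β/γΔ/Δ to Hp1βΔ/Δ and Hp1γΔ/Δ ESCs, whose libraries also overlapped, and on to Hp1α/βΔ/Δ ESCs, Setdb1Δ/Δ cells, Setdb1F/F and Hp1α/γΔ/Δ ESCs.

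Promoter sequences are shown for Nanog, which rose in 6 mutants, and Sox2, since OCT4 and SOX2 are known to bind an octamer next to a SOX motif upstream of Nanog. RefSeq promoter windows (GRCm38.p6, 250 bases before to 50 after a start site) matched 6 of the 10 members, Pou5f1, Sox2, Nanog, Nr5a2, Lin28a and Utf1, with 9 windows. The octamer core TTTGCAT was searched on both strands and lies in 1520 of all 32851 windows (4.63%), Nanog and Sox2 among the members. The octamer core followed after 1 base by ACAATG, a SOX core, lies in 2 of the 32851 windows (0.00609%), of which 1 is that of Nanog. Since such a site was already known at Nanog, finding it there is no independent result. Its part in the rise of Nanog was not tested. The 250 bases before the start site are printed 5′ to 3′ on the + strand, with the motif in capitals. They span chr6:122707239-122707488 for Nanog, with the first base of the motif 75 bases before the start site, and chr3:34649745-34649994 for Sox2, with the reverse complement of the octamer core beginning 99 bases before it. The RefSeq start site used for Sox2 is 34649995, which lies upstream of its GENCODE gene start, 34650405. A match of letters is not a measured binding site.
Nanog: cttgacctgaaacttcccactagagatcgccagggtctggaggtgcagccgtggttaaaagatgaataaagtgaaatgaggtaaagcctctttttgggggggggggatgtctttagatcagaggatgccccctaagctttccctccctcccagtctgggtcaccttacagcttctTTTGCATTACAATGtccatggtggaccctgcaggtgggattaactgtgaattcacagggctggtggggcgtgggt
Sox2: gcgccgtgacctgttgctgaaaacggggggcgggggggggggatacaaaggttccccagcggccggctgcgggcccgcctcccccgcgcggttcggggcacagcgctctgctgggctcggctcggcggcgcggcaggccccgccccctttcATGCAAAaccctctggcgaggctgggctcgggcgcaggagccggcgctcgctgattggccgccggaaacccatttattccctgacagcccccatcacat

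Pou5f1 (chromosome 17 of GRCm38, 35506018 to 35510772, + strand, overlapped by the antisense gene Gm19553) moved little in most single and double mutants. It had 962, 954 and 943 CPM in wild-type set A and 787, 809 and 769.9 CPM in set B. Against set A the log2 fold changes were −0.13 in Hp1αΔ/Δ (868, 857 and 873 CPM), 0.13 in Hp1βΔ/Δ (1120.5, 1030.2 and 1010.4 CPM), −0.08 in Hp1γΔ/Δ (909, 890.1 and 892 CPM), and −0.18 in Hp1α/βΔ/Δ ESCs (838, 860.3 and 846 CPM). The libraries of each of these mutants lay apart from those of set A, but the differences were smaller than that between the wild-type sets. With set B as the control, the direction turned to higher in Hp1αΔ/Δ, Hp1γΔ/Δ and Hp1α/βΔ/Δ ESCs, with 0.15, 0.20 and 0.10. Hp1β/γΔ/Δ ESCs had 696, 716 and 737 CPM, a log2 fold change of −0.14 against set B. Hp1α/γΔ/Δ ESCs had 1097, 1858 and 1145 CPM, a log2 fold change of 0.74 (adjusted p = 0.0152) that was 0.51 (adjusted p = 3.66e-07) without library 2. Leaving out any 1 library of set B instead gave adjusted p values of 0.0565 to 0.0633, and the call in Hp1βΔ/Δ ESCs was lost without replicate 3 of set A (adjusted p = 0.0511). Setdb1Δ/Δ and Hp1α/β/γΔ/Δ cells were the conditions in which Pou5f1 was clearly lower than in their controls, with −0.72 and −1.09.

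Sox2 (chromosome 3, 34650405 to 34652461, + strand, within the longer noncoding gene Sox2ot on the same strand) rose in 3 of the 6 single and double mutants and fell in 1. It had 353, 362 and 352 CPM in wild-type set A, 438, 431 and 432 CPM in Hp1αΔ/Δ, 437, 430.2 and 429 CPM in Hp1γΔ/Δ and 492, 479 and 454 CPM in Hp1α/βΔ/Δ ESCs. The log2 fold changes were 0.29 (SE 0.0242), 0.28 (SE 0.0239) and 0.41 (SE 0.0331), and no library of these 3 mutants overlapped with set A. The value for Hp1βΔ/Δ ESCs was 0.05 (95% interval −0.03 to 0.14, adjusted p = 0.285), or 0.07 (adjusted p = 0.0433) without its replicate 1. The difference between the wild-type sets lost its call without any 1 library of set A (adjusted p = 0.0508 to 0.1). Hp1β/γΔ/Δ ESCs stood out by a fall, with 247, 252 and 248 CPM against 388, 389.8 and 382 CPM in wild-type set B, a log2 fold change of −0.63 (SE 0.0396, adjusted p = 3.53e-09). The other pair of paralogs that includes HP1γ did not show it, since Hp1α/γΔ/Δ ESCs had 357, 401 and 393 CPM and a log2 fold change of −0.05 (95% interval −0.28 to 0.17, adjusted p = 0.688), or −0.05 (adjusted p = 0.47) without library 2. The difference between both double mutants was not tested. Nanog and Sox2 thus moved in opposite directions in Hp1β/γΔ/Δ ESCs, with 0.42 and −0.63 in the same 6 libraries.

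Nr5a2 (chromosome 1, 136842571 to 136960448, − strand) encodes an orphan nuclear receptor that binds the Pou5f1 gene, and had the widest range of the 10 over the controls and the single and double mutants. It had 28.2, 29.5 and 29.9 CPM in wild-type set A and 21.6, 24.3 and 28.1 CPM in set B. In Hp1βΔ/Δ ESCs it rose to 53.7, 59.4 and 58.4 CPM, a log2 fold change of 0.95 (SE 0.0624, adjusted p = 5.39e-07). The rises in Hp1αΔ/Δ and Hp1γΔ/Δ ESCs were smaller, 0.18 and 0.34, the former not passing without replicate 3 of Hp1αΔ/Δ ESCs or replicate 1 of set A (adjusted p = 0.0598 and 0.0872), and the value in Hp1α/βΔ/Δ ESCs, which also lack HP1β, was 0.10 (95% interval −0.03 to 0.24, adjusted p = 0.205). The 2 double mutants that lack HP1γ went opposite ways. Hp1α/γΔ/Δ ESCs had 109, 79.1 and 114 CPM, a fold of 3.99 and a log2 fold change of 2.0 (SE 0.194, adjusted p = 0.000289), or 2.17 without library 2. Hp1β/γΔ/Δ ESCs had 14.2, 12.4 and 12.5 CPM, a log2 fold change of −0.92 (SE 0.0972, adjusted p = 1.37e-06). The level in Hp1β/γΔ/Δ ESCs was next to that of Hp1α/β/γΔ/Δ cells, which had 9.53, 12.1 and 11.5 CPM.

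Sall4 (chromosome 2, 168748332 to 168767943, − strand, overlapped by Gm14261 on the opposite strand) encodes a zinc finger partner of OCT4 and NANOG. Its mean level had the narrowest range of the 10 members over the 11 conditions. Sall4 rose in 5 of the 6 single and double mutants. From 217 to 222 CPM in wild-type set A it went to 283 to 289 CPM in Hp1αΔ/Δ, 327 to 343 CPM in Hp1βΔ/Δ, 277 to 294 CPM in Hp1γΔ/Δ and 283 to 293 CPM in Hp1α/βΔ/Δ ESCs. The log2 fold changes of 0.39, 0.58, 0.38 and 0.39 had standard errors of at most 0.0357, and the libraries of Hp1αΔ/Δ, Hp1γΔ/Δ and Hp1α/βΔ/Δ ESCs overlapped with each other. In Hp1α/γΔ/Δ ESCs it was 0.35 (adjusted p = 0.0413), or 0.42 (adjusted p = 3.91e-05) without library 2. Leaving out instead any 1 other library of this comparison gave adjusted p values of 0.101 to 0.144. In Hp1β/γΔ/Δ ESCs it fell by 0.16 on the log2 scale (adjusted p = 0.0185), with 201, 204 and 199.7 CPM against 206, 235 and 234 CPM in set B. That call did not hold without replicate 1 or 3 of Hp1β/γΔ/Δ ESCs or replicate 2 or 3 of set B (adjusted p = 0.0541 to 0.0941).

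Dppa5a (chromosome 9, 78367052 to 78368177, − strand) fell in 5 of 6 single and double mutants and rose in the sixth. The libraries of Hp1βΔ/Δ ESCs had 271, 250.4 and 251 CPM against 509, 499 and 527 CPM in wild-type set A, a log2 fold change of −1.01 (SE 0.0401, adjusted p = 1.68e-08). Hp1β/γΔ/Δ ESCs had nearly the same level, 247, 250.4 and 257 CPM, against 548, 469 and 469.9 CPM in set B, a log2 fold change of −0.98 (SE 0.0557, adjusted p = 1.2e-09). The falls in Hp1αΔ/Δ, Hp1γΔ/Δ and Hp1α/βΔ/Δ ESCs were −0.14, −0.44 and −0.24. Hp1α/γΔ/Δ ESCs had 1151, 2452 and 1239 CPM, more than any other condition, and a log2 fold change of 1.65 (SE 0.271, adjusted p = 0.00252). At 619 bases Dppa5a is the shortest member, and it was the one that differed most in library 2, by 1.04 on the log2 scale from the mean of libraries 1 and 3. Without that library the rise was 1.27 (adjusted p = 1.38e-09).

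Lin28a (chromosome 4, 134003330 to 134018841, − strand, overlapped by Gm13061 on the opposite strand) encodes an RNA-binding protein that blocks the maturation of let-7 microRNAs. It had 411, 428 and 423 CPM in wild-type set A and 359.7, 355 and 353 CPM in set B, and the libraries of the single mutants spanned 383 to 491 CPM. Its largest change in a single or double mutant was that in Hp1α/γΔ/Δ ESCs, which had 263, 249 and 265 CPM, a log2 fold change of −0.50 (SE 0.102, adjusted p = 0.00648) and −0.43 without library 2. It was the only member that passed as lower there. The values in Hp1αΔ/Δ and Hp1βΔ/Δ ESCs were 0.15 and 0.13, the latter with an adjusted p of 0.0565 without replicate 1 of set A, and those in Hp1γΔ/Δ and Hp1α/βΔ/Δ ESCs were −0.11 and −0.22, which turned to 0.15 and 0.02 against set B. Hp1β/γΔ/Δ ESCs had 0.05 (95% interval −0.04 to 0.13, adjusted p = 0.352) against set B and −0.19 against set A.

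Utf1 (chromosome 7, 139943789 to 139945112, + strand), which encodes a chromatin-bound factor of undifferentiated cells, had 249.6, 247 and 236 CPM in wild-type set A. It rose slightly in Hp1αΔ/Δ, Hp1βΔ/Δ and Hp1α/βΔ/Δ ESCs, by log2 fold changes of 0.12, 0.23 and 0.24, and fell in Hp1β/γΔ/Δ ESCs with −0.19, a call lost without replicate 1 of these ESCs or replicate 3 of set B (adjusted p = 0.0606 and 0.0509). The value was −0.07 (95% interval −0.14 to 0.00, adjusted p = 0.115) in Hp1γΔ/Δ ESCs, or −0.09 (adjusted p = 0.0388) without replicate 1. In Hp1α/γΔ/Δ ESCs the libraries had 311, 604 and 316 CPM against 234, 271 and 263 CPM in set B, and the log2 fold change of 0.63 did not pass (adjusted p = 0.066). Without library 2 it was smaller and passed, with 0.29 (adjusted p = 0.000956), and it also passed without library 1 or 3 (0.79 and 0.78).

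Dppa4 (chromosome 16, 48283733 to 48294237, + strand) and Dppa2 (48303908 to 48319723, + strand) are neighbours, and their SAP-domain proteins act as a complex that opens promoters of early embryonic genes. Dppa4 fell in 5 of 6 single and double mutants. It had 232, 229 and 235 CPM in wild-type set A against 130.5, 135 and 126 CPM in Hp1αΔ/Δ, 183, 178 and 176 CPM in Hp1βΔ/Δ, 134, 135 and 142 CPM in Hp1γΔ/Δ and 113, 121 and 116 CPM in Hp1α/βΔ/Δ ESCs. Every library of these mutants lay below every library of set A. The log2 fold changes were −0.82 (SE 0.0335, adjusted p = 9.94e-14), −0.39 (SE 0.0375, adjusted p = 8.07e-06), −0.76 (SE 0.0332, adjusted p = 1.68e-12) and −1.0 (SE 0.0392, adjusted p = 1.6e-12). Hp1β/γΔ/Δ ESCs had 108, 102 and 104 CPM against 200.0, 199 and 192 CPM in set B, a log2 fold change of −0.91. Hp1α/γΔ/Δ ESCs had 179, 224 and 185 CPM and −0.05 (95% interval −0.30 to 0.20, adjusted p = 0.713), or −0.12 (adjusted p = 0.0654) without library 2.

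Dppa2 followed Dppa4 in part. It fell in Hp1αΔ/Δ, Hp1γΔ/Δ, Hp1α/βΔ/Δ and Hp1β/γΔ/Δ ESCs, by log2 fold changes of −0.51, −0.31, −0.64 and −0.46, and its value in Hp1βΔ/Δ ESCs was 0.03 (95% interval −0.08 to 0.13, adjusted p = 0.669). In Hp1α/γΔ/Δ ESCs Dppa2 rose, with 157, 199.9 and 157 CPM against 90.4, 89.7 and 98.2 CPM in set B, a log2 fold change of 0.84 (SE 0.117, adjusted p = 0.00122) and 0.75 (adjusted p = 8.37e-08) without library 2.

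Genes of chromosome 16 were lower as a group in all Hp1 mutants. Their median log2 fold change was −0.51 in Hp1αΔ/Δ, −0.31 in Hp1βΔ/Δ, −0.51 in Hp1γΔ/Δ, −0.42 in Hp1α/βΔ/Δ, −0.43 in Hp1α/γΔ/Δ (−0.44 without library 2), −0.44 in Hp1β/γΔ/Δ ESCs and −0.30 in Hp1α/β/γΔ/Δ cells. In the single and double mutants the medians of the other chromosomes lay between −0.17 and 0.17, and in Hp1α/β/γΔ/Δ cells between −0.15 and 0.52. Chromosome 16 had a median of 0.03 in Setdb1Δ/Δ cells and −0.06 between the wild-type sets. In Hp1αΔ/Δ ESCs 95.4% of its 457 tested genes lay below 0. Dppa2 lay within 0.02 of this median in Hp1αΔ/Δ and Hp1β/γΔ/Δ ESCs, 0.33 above it in Hp1βΔ/Δ, 0.20 above it in Hp1γΔ/Δ and 0.22 below it in Hp1α/βΔ/Δ ESCs. Dppa4 lay below it by 0.32 in Hp1αΔ/Δ, 0.09 in Hp1βΔ/Δ, 0.25 in Hp1γΔ/Δ, 0.58 in Hp1α/βΔ/Δ, 0.47 in Hp1β/γΔ/Δ ESCs and 1.0 in Hp1α/β/γΔ/Δ cells. In Hp1α/γΔ/Δ ESCs Dppa2 and Dppa4 lay 1.27 and 0.38 above it. What lowers chromosome 16 was not tested, and its part in the falls of Dppa2 and Dppa4 was not tested either. Among the nearest tested neighbours, Dzip3 and Nectin3 were lower in all 6 single and double mutants, from −1.08 to −1.77 and from −0.40 to −0.97, Plcxd2 was lower in all 6, and Morc1 ranged from −1.61 in Hp1βΔ/Δ to 1.21 in Hp1α/γΔ/Δ ESCs. In Hp1α/β/γΔ/Δ cells Plcxd2, Morc1 and Dzip3 were higher, with 3.23, 0.60 and 0.24, and Nectin3 was lower, with −0.74. Plcxd2 and Nectin3 end at positions 46010218 and 46498525, and Dppa4 starts at 48283733.

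**Figure D3:**
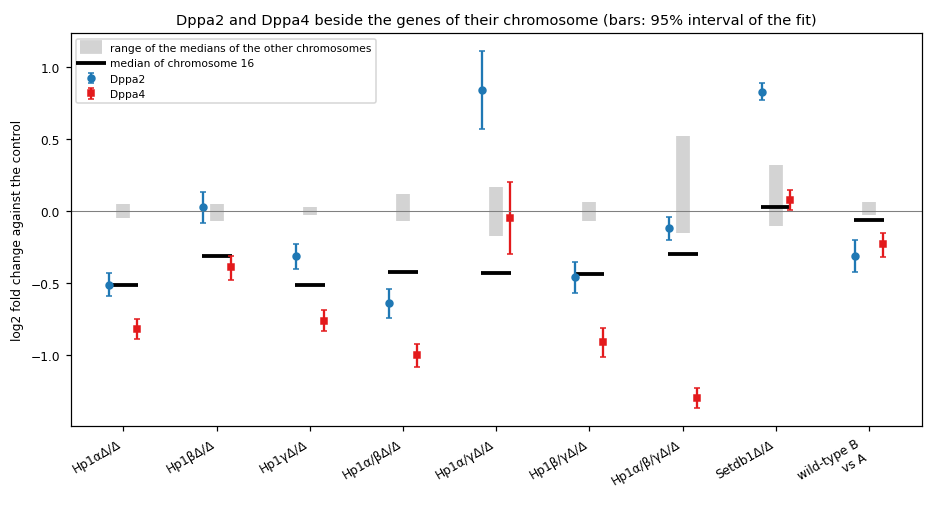
Log2 fold change of Dppa2 (circles) and Dppa4 (squares) with 95% intervals in 8 mutants and between the wild-type sets, beside the median of all tested genes of chromosome 16 (black bars) and the range of the medians of the other chromosomes (grey). The black bars lie between −0.51 and −0.30 in the 7 Hp1 mutants, and Dppa2 lies at 0.84 in Hp1α/γΔ/Δ ESCs and at 0.83 in Setdb1Δ/Δ cells.

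The next comparison asked whether Hp1α/βΔ/Δ ESCs differ from the sum of both single mutants, by the interaction of both losses over the 12 libraries of wild-type set A, Hp1αΔ/Δ, Hp1βΔ/Δ and Hp1α/βΔ/Δ ESCs. For 7 of 10 members the interaction passed at an adjusted p under 0.05, and it did for 45.0% of all genes. Dppa5a had log2 fold changes of −0.14 and −1.01 in the single mutants, which sum to −1.15, and −0.24 in the double mutant, an interaction of 0.92 (SE 0.051, adjusted p = 2.33e-10). Its libraries had 434, 451 and 421 CPM in Hp1α/βΔ/Δ ESCs and were all above those of Hp1βΔ/Δ ESCs. Nr5a2 showed the mirror image, with a sum of 1.13, 0.10 in the double mutant and an interaction of −1.02 (SE 0.0847, adjusted p = 2.99e-08). The rise of Nr5a2 and the fall of Dppa5a in Hp1βΔ/Δ ESCs were thus both smaller in Hp1α/βΔ/Δ ESCs. The number of clones per genotype is not given, so that an interaction cannot be told apart from differences between the lines. Sall4 had a sum of 0.97 and 0.39 in the double mutant (interaction −0.58), and Lin28a a sum of 0.29 and −0.22 (interaction −0.50). Nanog departed the other way, with a sum of 0.64 and 0.88 in the double mutant, an interaction of 0.24 (SE 0.0467, adjusted p = 0.000338). The interactions of Pou5f1 and Dppa4 were −0.17 and 0.22, where the median interaction of the genes of chromosome 16 was 0.43. Sox2, Utf1 and Dppa2 did not pass, with 0.07 (95% interval −0.04 to 0.17), −0.10 (−0.21 to 0.01) and −0.15 (−0.29 to −0.01), the last passing with −0.18 without replicate 3 of Hp1βΔ/Δ ESCs (adjusted p = 0.0438).

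**Figure D4:**
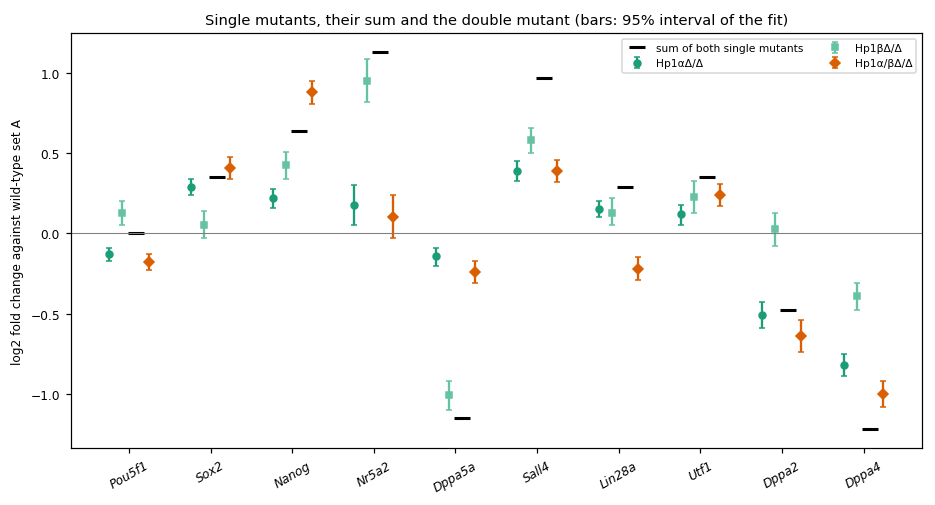
Log2 fold change against wild-type set A of the 10 genes in Hp1αΔ/Δ, Hp1βΔ/Δ and Hp1α/βΔ/Δ ESCs (points with 95% intervals) and the sum of both single mutants (black bars). The double mutant lies above the sum for Dppa5a (−0.24 against −1.15) and Nanog (0.88 against 0.64) and below it for Nr5a2 (0.10 against 1.13) and Sall4 (0.39 against 0.97).

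In Setdb1Δ/Δ cells the members split. Setdb1F/F ESCs, their control, differed from the wild-type sets before any deletion, with mean levels that were 2.54 times those of set A for Nanog, 4.02 times for Nr5a2 and 0.576 times for Dppa4. No test of the lines against each other was made. Dppa5a fell from 898, 872 and 893 to 369.8, 379 and 370.3 CPM, a log2 fold change of −1.26 (SE 0.0197, adjusted p = 3.16e-19). Pou5f1 fell from 1535, 1518 and 1512 to 925, 923 and 934 CPM, a log2 fold change of −0.72 (SE 0.0166, adjusted p = 6.77e-17). Both falls kept their direction under each scaling, with −0.99 and −0.46 by library totals and −0.76 and −0.23 in deposited TPM. Dppa2 rose from 93.6, 95.5 and 92.8 to 170.1, 169.5 and 165 CPM, a log2 fold change of 0.83 (SE 0.0302, adjusted p = 4.55e-14), and 1.10 and 1.30 under these scalings. Sox2 rose from 581, 559 and 562 to 628, 640.5 and 610.2 CPM, a log2 fold change of 0.13 that was 0.40 by library totals and 0.66 in TPM.

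The size of each change in Setdb1Δ/Δ cells depended on the scaling, and the median log2 fold change of all genes was 0.015 with TMM scaling and 0.282 by library totals. Nanog had 513, 529.6 and 527 CPM in Setdb1F/F ESCs and 509.5, 504 and 502 CPM in Setdb1Δ/Δ cells, and its log2 fold change of −0.06 became 0.21 by library totals and 0.44 in TPM. That of Nr5a2 went from −0.16 to 0.11 and 0.30, and that of Utf1 from −0.26 to 0.0047 (adjusted p = 0.875) and 0.23. Lin28a had −0.50, −0.23 and 0.01. Dppa4 had 0.08 (adjusted p = 0.0375), 0.35 and 0.58 and was the changed member whose libraries overlapped between both groups, with 136, 132 and 133 CPM against 147, 143 and 136 CPM. It lost its call without any Setdb1F/F library or without replicate 1 or 2 of Setdb1Δ/Δ cells (adjusted p = 0.0667 to 0.178), and Nanog without replicate 2 of Setdb1Δ/Δ cells (adjusted p = 0.0512). Sall4 had 0.01 (95% interval −0.03 to 0.05, adjusted p = 0.684), and passed as higher with 0.28 by library totals and had 0.50 in TPM. 

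**Figure D5:**
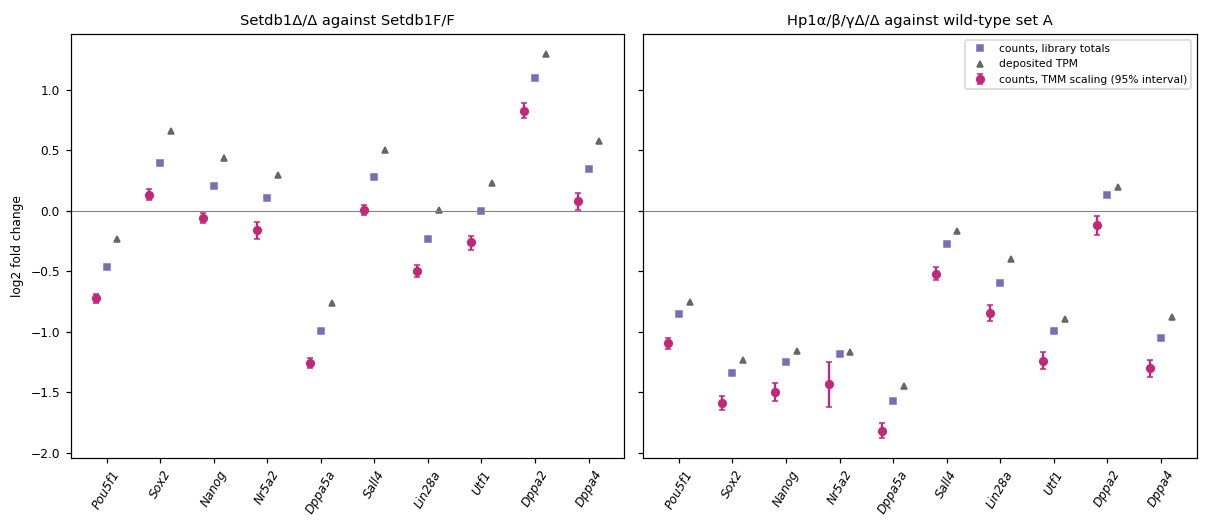
Log2 fold change of the 10 genes in Setdb1Δ/Δ cells against Setdb1F/F ESCs (left) and in Hp1α/β/γΔ/Δ cells against wild-type set A (right), from counts with TMM scaling (circles with 95% intervals), counts by library totals (squares) and deposited TPM (triangles). All 3 scalings put Dppa5a and Pou5f1 below 0 and Dppa2 above 0 on the left, and Nanog lies at −0.06, 0.21 and 0.44 on the left and at −1.50, −1.25 and −1.16 on the right.

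The changes in Setdb1Δ/Δ and Hp1α/β/γΔ/Δ cells, whose controls are separate libraries, were compared by a test of their difference over 12 libraries. All 10 members differed, each being less reduced or more raised in Setdb1Δ/Δ cells, and 64.9% of all genes differed, 33.6% in this direction. Setdb1Δ/Δ cells were set against Setdb1F/F ESCs, from which they came, and Hp1α/β/γΔ/Δ cells against set A, which the labels call wild type. What was lost cannot be told apart here from differences between these lines and their controls. The difference was largest for Sox2, 1.75 on the log2 scale (SE 0.0345, adjusted p = 2.53e-21), which was at 119.7, 122 and 119.6 CPM in Hp1α/β/γΔ/Δ cells. Nanog and Dppa4 followed with 1.46 and 1.40, then Nr5a2 with 1.30, Utf1 with 1.0 and Dppa2 with 0.97. The median of this difference was 0.35 over the genes of chromosome 16, which holds Dppa2 and Dppa4, and −0.28 over those of chromosome 6, which holds Nanog. Less the medians of their chromosomes, Sox2 and Nanog both had 1.74, Nr5a2 1.28, Dppa4 1.06, Utf1 0.94 and Dppa2 0.63. With or without this subtraction it was smallest for Lin28a and Pou5f1. The fitted values were 0.37 (SE 0.0397) and 0.40 (SE 0.0246). Dppa5a fell in both, with −1.26 and −1.82, with a difference of 0.59. In the triple mutant Dppa2 was the member that moved least, −0.12 with TMM scaling, and its direction turned to 0.13 by library totals, to 0.20 in TPM and to 0.21 against wild-type set B.

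Other genes of the pluripotent and neighbouring states were read from lists of known markers. Of 20 genes of the naive network, 14 rose and 4 fell in Hp1αΔ/Δ, 10 rose and 5 fell in Hp1βΔ/Δ, 15 rose and 2 fell in Hp1γΔ/Δ, and 12 rose and 5 fell in Hp1α/βΔ/Δ ESCs, with median log2 fold changes of 0.27, 0.22, 0.40 and 0.54. In Hp1α/γΔ/Δ ESCs 14 rose and the other 6 did not pass (median 0.81; without library 2 it was 15 rising, 1 falling and a median of 0.89), and in Hp1β/γΔ/Δ ESCs 2 rose and 15 fell (median −0.48). Tbx3, a T-box factor of the naive state, had the largest rise of the list in Hp1γΔ/Δ, Hp1α/βΔ/Δ and Hp1α/γΔ/Δ ESCs, with 1.68, 2.81 and 4.44 on the log2 scale (4.53 without library 2 in the last). In Hp1αΔ/Δ ESCs it was Klf4 (1.32), in Hp1βΔ/Δ ESCs Zfp296 (1.66) and in Hp1β/γΔ/Δ ESCs Tdgf1 (0.72), which encodes a Nodal co-receptor. The largest falls were those of the Krüppel-like factor gene Klf2 in Hp1αΔ/Δ and Hp1γΔ/Δ ESCs (−0.76 and −0.44), Fbxo15 in Hp1βΔ/Δ (−0.40) and Gdf3 in Hp1α/βΔ/Δ ESCs (−0.60). Nr0b1, which encodes DAX1, fell most in Hp1β/γΔ/Δ ESCs, by a log2 fold change of −1.45, with 20.8 ± 0.424 against 56.8 ± 2.31 CPM (SD, n = 3). In Hp1α/β/γΔ/Δ cells 4 rose and 11 fell, led by Dppa3 (1.62), a germline factor gene, and Fgf4 (−2.94), which encodes a growth factor. In Setdb1Δ/Δ cells 5 rose and 14 fell (median −0.70), led by Dppa3 (2.45) and Klf5 (−2.23). Between the wild-type sets 3 rose and 6 fell, led by Prdm14 (0.43) and Fgf4 (−0.39).

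Of 14 genes of the formative and primed state, 12 were tested in Hp1αΔ/Δ ESCs, where 9 rose and 2 fell (median 0.71). In Hp1βΔ/Δ ESCs 7 of 13 rose and 2 fell, in Hp1γΔ/Δ ESCs 6 of 12 rose and 3 fell, and in Hp1α/βΔ/Δ ESCs 8 of 13 rose and 2 fell. In Hp1α/γΔ/Δ ESCs 2 of 12 rose and 7 fell (median −0.75), and without library 2 it was 2 and 8 of 13 (median −0.91). Otx2, a homeobox factor of the formative state, had the largest rise in each single mutant, 2.47, 1.26 and 1.94 on the log2 scale, beside 0.83 between the wild-type sets, where Dnmt3b fell most (−0.19). Sox3, a SOXB1 factor, had the largest fall in each single mutant, −0.64, −0.92 and −0.89, and in Hp1α/βΔ/Δ ESCs (−1.52), where T, which encodes Brachyury, rose most (2.95). Lef1 rose most (1.66) and Fgf5 fell most (−3.37) in Hp1α/γΔ/Δ ESCs, with 1.62 and −3.31 without library 2. Fgf5 was low in both groups, with 0.115 ± 0.0687 against 1.23 ± 0.212 CPM. In Hp1β/γΔ/Δ ESCs 9 of 13 tested genes rose and 3 fell, led by T with 3.58 and Sox4 with −1.03. T was low in the controls, with 4.64 ± 1.15 against 0.588 ± 0.504 CPM in Hp1α/βΔ/Δ and 5.98 ± 0.429 against 0.492 ± 0.121 CPM in Hp1β/γΔ/Δ ESCs. In Setdb1Δ/Δ cells 4 of 10 tested genes rose and 5 fell, led by Lef1 (4.27, at 4.35 ± 0.272 against 0.219 ± 0.149 CPM) and Pou3f1 (−2.68). In Hp1α/β/γΔ/Δ cells 1 of 11 rose, Nes (1.49), and 8 fell, led by Sox4 (−2.74). The direction in Hp1α/γΔ/Δ ESCs, naive genes higher and formative genes lower, differed from that of all other single and double mutants in these counts, and the difference itself was not tested.

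Markers of the earliest other lineages were counted beside the members. Of 13 trophoblast genes, 8 of 12 tested rose and the other 4 did not pass in Hp1βΔ/Δ, 8 of 11 rose and 1 fell in Hp1α/βΔ/Δ, and 8 of 11 rose and 1 fell in Hp1β/γΔ/Δ ESCs, with medians of 1.19, 1.34 and 0.59. In Hp1αΔ/Δ and in Hp1γΔ/Δ ESCs 4 of 10 rose and 2 fell, in Hp1α/γΔ/Δ ESCs 2 of 11 rose and 6 fell (3 and 6 without library 2), in Hp1α/β/γΔ/Δ cells 10 of 13 rose and 2 fell, and in Setdb1Δ/Δ cells 2 of 9 rose and 6 fell. Between the wild-type sets 6 of 11 rose and the other 5 did not pass, with a median of 0.41. Tfap2c, an AP-2 factor, was the largest rise in Hp1αΔ/Δ, Hp1γΔ/Δ and Hp1α/βΔ/Δ ESCs (1.70, 1.77 and 2.25), and the trophoblast regulator Cdx2 in Hp1βΔ/Δ and Hp1β/γΔ/Δ ESCs (3.06 and 2.96). Cdx2 was low in all of these groups, with 1.5 ± 0.476 against 0.171 ± 0.0953 CPM and 1.11 ± 0.421 against 0.139 ± 0.0775 CPM. Ascl2 was the largest fall in Hp1αΔ/Δ, Hp1γΔ/Δ, Hp1α/βΔ/Δ and Hp1β/γΔ/Δ ESCs (−0.73, −1.04, −1.0 and −1.27). Tead4 rose most (0.81) and the keratin gene Krt8 fell most (−2.24) in Hp1α/γΔ/Δ ESCs, with 0.99 and −2.38 without library 2, where Tfap2a rose further (1.2). Eomes was the largest fall in Hp1α/β/γΔ/Δ and Setdb1Δ/Δ cells (−1.04 and −3.20), where Gata2 (1.94) and Tfap2a (1.90) rose most, and the keratin gene Krt18 rose most between the wild-type sets (0.81). Of 14 primitive endoderm genes, all 14 were tested in Setdb1Δ/Δ cells, where 2 rose and 12 fell (median −1.11), and 11 in Hp1α/β/γΔ/Δ cells, where 5 rose and 6 fell. In the single and double mutants 9 were tested, of which at most 5 rose and 2 to 5 fell (1 and 3 in Hp1α/γΔ/Δ ESCs, and 2 and 4 of 10 without library 2). Sox7 was the largest rise in Hp1βΔ/Δ (2.62), Hp1γΔ/Δ (1.14), Hp1α/βΔ/Δ (1.75), Hp1α/γΔ/Δ (2.77, or 2.85 without library 2) and Hp1β/γΔ/Δ ESCs (0.90), and the largest fall in Setdb1Δ/Δ cells (−3.19). Its levels were low, with means of 0.483 CPM in set A, 0.644 CPM in set B and 1.07 to 4.57 CPM in these Hp1 mutants. The largest falls in the single and double mutants were those of the laminin genes Lama1 in Hp1αΔ/Δ and Hp1β/γΔ/Δ (−0.73 and −2.36) and Lamb1 in Hp1γΔ/Δ ESCs (−0.53) and of the endocytic adaptor gene Dab2 in Hp1βΔ/Δ, Hp1α/βΔ/Δ and Hp1α/γΔ/Δ ESCs (−0.56, −1.15 and −5.04, the last −4.60 without library 2). Lama1 fell most (−1.96) in Hp1α/β/γΔ/Δ cells, Foxa2 rose most in Setdb1Δ/Δ cells (3.19, at 1.06 ± 0.135 against 0.106 ± 0.0457 CPM), and Lama1 fell most between the wild-type sets (−0.43).

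Markers of feeder fibroblasts moved with some conditions. The summed level of 14 such genes was 92.6 to 108 CPM in wild-type set B and 25.4 to 27.5 CPM in Hp1α/γΔ/Δ ESCs, where 10 of 10 tested genes were lower, all over 2-fold and also without library 2, and Postn, Fap and Twist2 were at 0. In the same libraries the members Pou5f1, Nanog, Nr5a2, Dppa5a, Sall4 and Dppa2 were higher, and the part of the fibroblast share in that was not tested. The sum was 75.6 to 82.1 CPM in wild-type set A, 61.7 to 72.1 CPM in the libraries of the 3 single mutants and Hp1α/βΔ/Δ ESCs, and 80.5 to 85.9 CPM in Hp1β/γΔ/Δ ESCs. In Hp1α/β/γΔ/Δ cells it was 34.1 to 40.6 CPM. It was 33.3 to 37.2 CPM in Setdb1F/F ESCs and 24.8 to 26.5 CPM in Setdb1Δ/Δ cells. Fap was at 0 in all 11 conditions, and Lum in both wild-type sets. The collagen gene Col1a2 fell most in Hp1α/γΔ/Δ ESCs (−5.33, or −4.96 without library 2, where Dcn fell further, −7.22) and rose most in Hp1αΔ/Δ, Hp1γΔ/Δ and Hp1α/βΔ/Δ ESCs (1.43, 1.93 and 1.87) and between the wild-type sets (2.13), and Col1a1 rose most in Hp1βΔ/Δ ESCs (1.53). The largest falls elsewhere were those of Mmp2 in Hp1αΔ/Δ (−0.45), Loxl1 in Hp1βΔ/Δ and Hp1β/γΔ/Δ (−1.26 and −1.31) and Dcn in Hp1γΔ/Δ and Hp1α/βΔ/Δ ESCs (−1.16 and −1.78). Thy1 fell most in Hp1α/β/γΔ/Δ and Setdb1Δ/Δ cells (−3.42 and −2.73), where Col3a1 (2.55) and Fbn1 (0.28) rose most.

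The patterns over the 11 conditions were also set beside those of other genes, by Pearson's r of mean log2 CPM among 11443 genes with a mean of at least 5 CPM. The 11 points share libraries and scaling, so that r is a description. Zfp57, a zinc finger gene of imprinting control, was most like Pou5f1 (r = 0.994), followed by B4galnt4 (0.97) and Cd9 (0.962). Ftl1, Ano9 and Ddx17 were most like Sox2 (0.984, 0.972 and 0.972), and Abcd3, Csad and Stam2 most like Nanog (0.985, 0.97 and 0.955). Among the members themselves, Pou5f1 and Nr5a2 had r = 0.874, Nanog and Pou5f1 0.85, and Sox2 and Sall4 0.893, whereas Lin28a had 0.0112 with Pou5f1, 0.0207 with Sox2 and −0.195 with Nanog.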

How the data were processed

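RNA was measured in 33 libraries of mouse ESCs. The authors aligned reads and deposited, per gene and library, expected counts (RSEM) and TPM, a transcript abundance corrected for gene length and library size. The submitters' notes name TopHat2 2.1.1, RSEM, edgeR and GRCm38.p5, with no roles. The study's methods name a stranded total RNA kit and the labels a TruSeq RNA kit. Columns of the authors' own comparisons, deposited log2 fold changes and p-values, were not used.

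Expected counts were rounded. Each comparison was fitted with edgeR 4.0.16 in R 4.3.3 (filterByExpr at a count minimum of 10, TMM scaling, quasi-likelihood test) on its own libraries, with p-values adjusted by Benjamini-Hochberg over all genes that passed. CPM was scaled over all 33 libraries together, so that ratios of CPM differ slightly from fitted fold changes. TPM was used for levels between genes and as an alternative. Columns that appear in several tables held identical values. Positions are from GENCODE M21 on GRCm38. The script was tested on simulated data. DESeq2 1.42.0, RLE factors, no filter, a joint fit of the conditions that share a control (of all conditions for Setdb1Δ/Δ), the other wild-type set, the replicate number as a block and leaving out each library were alternatives, and library totals only were added after seeing the data.

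The members and lists were chosen with earlier results of these data known. All 10 members are named, and from each list the largest rise and fall that passed with a mean of at least 1 CPM in a group, apart from an item that is not reported here. P-values measure the spread between these libraries, which may be in part technical.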

Additional observations from a re-analysis of the deposited data

Results flagged for a closer look

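The interaction of HP1α and HP1β loss over 12 libraries passed for 7 of the 10 genes (edgeR's quasi-likelihood test, adjusted p under 0.05), as it did for 45.0% of all genes. An interaction cannot be told apart here from differences between the lines. On the log2 scale the interaction was −1.02 for Nr5a2, −0.58 for Sall4, −0.50 for Lin28a and −0.17 for Pou5f1, and 0.92 for Dppa5a, 0.24 for Nanog and 0.22 for Dppa4. The value of Dppa4 stood beside a median interaction of 0.43 over the genes of chromosome 16, and its part in the result was not tested.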

How the results depend on the processing

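Of 110 values of the 10 genes, 74 kept their direction and their side of the threshold under every alternative with a test, and 36 did not. The cause of the changes below was not tested. With the other wild-type set as the control the log2 fold change of Pou5f1 turned to 0.15 in Hp1αΔ/Δ, 0.20 in Hp1γΔ/Δ and 0.10 in Hp1α/βΔ/Δ, that of Lin28a to 0.15 in Hp1γΔ/Δ, 0.02 in Hp1α/βΔ/Δ and −0.19 in Hp1β/γΔ/Δ, that of Sox2 to −0.06 in Hp1βΔ/Δ and 0.08 in Hp1α/γΔ/Δ, and that of Dppa2 to 0.02 in Hp1γΔ/Δ and 0.21 in Hp1α/β/γΔ/Δ. By library totals Dppa2 turned to −0.02 in Hp1βΔ/Δ and 0.13 in Hp1α/β/γΔ/Δ, and Nanog, Nr5a2 and Utf1 in Setdb1Δ/Δ to 0.21, 0.11 and 0.0047. In deposited TPM Dppa2 turned to 0.20 in Hp1α/β/γΔ/Δ, and Nanog, Nr5a2, Utf1 and Lin28a in Setdb1Δ/Δ to 0.44, 0.30, 0.23 and 0.01. Less the median of chromosome 16, Dppa2 turned to 0.20 in Hp1γΔ/Δ and 0.18 in Hp1α/β/γΔ/Δ. Dppa4 in Hp1α/γΔ/Δ, which did not pass, turned to 0.00066 with RLE factors and ranged from −0.12 to 0.0042 with 1 library left out, and Sall4 in Setdb1Δ/Δ, which did not pass, turned to −0.02 with no filter and ranged from −0.01 to 0.02. The number of members over 2-fold in Hp1βΔ/Δ was 0 with RLE factors, DESeq2 and the joint fit and 0 to 2 with 1 library left out (2 without replicate 1 of Hp1βΔ/Δ, 0 without its replicate 2 or 3 or replicate 3 of set A). In Hp1α/βΔ/Δ it was 0 with DESeq2 and with the other wild-type set and 0 to 1 with 1 library left out (0 without its replicate 1 or 3 or replicate 3 of set A). In Hp1β/γΔ/Δ it was 3 with the other wild-type set and 0 to 1 with 1 library left out (1 without any 1 library of set B). In Hp1α/β/γΔ/Δ it was 5 by library totals and 6 with the other wild-type set, against 7, and in Setdb1Δ/Δ the 1 member was Dppa2 by library totals in place of Dppa5a. The number changed in Setdb1Δ/Δ was 5 in the joint fit, its split of 3 higher and 6 lower became 6 and 3 by library totals, with Sall4 gaining (0.28) and Utf1 losing its call, and between the wild-type sets it was 4 to 8 with 1 library left out (8 without replicate 1 of set B, with Dppa5a at −0.12, Sall4 at 0.10 and Utf1 at 0.13 passing there, and Nr5a2 at −0.34 passing without replicate 3). The number changed in Hp1β/γΔ/Δ was 6 in the joint fit, with 1 higher and 5 lower, against 9. In Hp1βΔ/Δ it was 6 by library totals, with 4 higher and 2 lower, against 8. Equal replicate numbers did not pair the libraries, since no comparison had every pair correlated above 0.1. With the replicate number as a block 108 of 110 values kept their call, Nr5a2 between the wild-type sets gained it (−0.25, adjusted p = 0.0235) and Sall4 in Hp1α/γΔ/Δ lost it (adjusted p = 0.098). Each member had at least 9.53 CPM in every library, at 17331005 counts or more per library.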
